A study of Mus musculus with 6 samples.

Results

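Adgrg6, an adhesion G protein-coupled receptor also known as Gpr126, and the 9 membrane-bound adenylyl cyclases Adcy1 to Adcy9 were followed in RNA from mouse sciatic nerve. These 10 genes were taken by name from the 24421 genes of the deposited count tables, with the difference between the genotypes known from earlier results, so their values describe these libraries and are not independent evidence. The mutant libraries were 3 labelled YAP/TAZ-DBL-cKO (called cKO here), and the controls were 3 labelled YAP/TAZ-WT (WT). By the study's own account each group came from 3 mice, and its title sets the question of how YAP and TAZ, the effectors of the Hippo pathway, act on myelination in peripheral nerve. The labels spell out neither DBL nor cKO. No source used here gives the strain, the age, the deleted exons or the driver of the deletion.

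Adenylyl cyclases make cyclic AMP from ATP when a receptor activates the stimulatory G protein Gs. In Schwann cells Adgrg6 is such a receptor: it binds laminin and collagen IV of the basal lamina and raises cyclic AMP, which acts through protein kinase A on the transcription factors Pou3f1 and Egr2 at the onset of myelination. The cyclases are activated or inhibited by different signals. Adcy1, Adcy3 and Adcy8 are stimulated by calcium and calmodulin, Adcy2, Adcy4 and Adcy7 respond to G protein beta-gamma subunits, Adcy5 and Adcy6 are inhibited by calcium, and Adcy9 stands apart with little response to the drug forskolin.

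Gene counts totalled 24651262 to 32003497 per library in cKO nerves and 41270894 to 47044158 in WT nerves, so every cKO library was the shallower. Levels are given in CPM, counts scaled to library size with TMM (trimmed mean of M-values) factors. Neither targeted gene checked the labels, and which exons were deleted is not known: Yap1 lay at 102.6 to 108.8 CPM in cKO and 120.4 to 123.7 CPM in WT nerves, and Wwtr1, which encodes TAZ, at 337.4 to 372.0 CPM in cKO and 253.8 to 284.2 CPM in WT nerves. Yap1 was not called (log2 -0.20 ± 0.08, SE, edgeR adjusted p = 0.145), and Wwtr1 was called higher in the libraries labelled cKO (log2 0.40 ± 0.09, SE, edgeR adjusted p = 0.0208), the direction opposite to a loss of its transcript. Throughout, cKO and WT name libraries by their labels alone, and every direction given rests on those labels. The summed level of 11 Schwann cell markers, all detected, was 21070 to 33620 CPM in cKO and 78980 to 111400 CPM in WT nerves. In this list 5 myelin genes fell, while Sox10, which marks the lineage, was at 413.4 to 485.7 CPM in cKO and 404.6 to 571.2 CPM in WT nerves. The summed level of 12 skeletal muscle markers ran the other way, at 3621 to 8256 CPM in cKO and 355.2 to 1388 CPM in WT nerves, and 10 of the 12 rose. Over all 14789 genes tested, 4.77% were called higher and 6.17% lower in cKO nerves at an edgeR adjusted p under 0.05. All 6 libraries held transcripts of both Xist and the Y-linked Ddx3y, and pooling of nerves is not mentioned.

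Both Adcy1 and Adcy8 fell in cKO nerves, 5.27-fold and 13.4-fold, while Adgrg6 and the most abundant cyclase, Adcy6, differed by 1.12-fold and 1.13-fold and did not pass the test. All 10 genes passed the filter on low counts, 9 of them in both groups and Adcy8 through the WT libraries alone, so Adcy8 had to be higher in WT nerves to be tested. Of the 10 genes, 2 were lower and 0 higher in cKO nerves at an edgeR adjusted p under 0.05, where 6.17% and 4.77% of the 14789 genes tested were called lower and higher. The genes were taken with this contrast known, so nothing is read from that share. At an unadjusted edgeR p under 0.05 there were 3 lower genes, Adcy1, Adcy8 and Adcy5, and 1 higher gene, Adcy7. The share of all genes at that unadjusted threshold was not computed, so nothing is read from such counts, here or in the lists below. DESeq2 called Adcy7 (1 higher) and limma-voom did not (0 higher). The groups did not overlap for 5 of the 10 genes, against 31.1% of all genes tested. In bulk tissue, fewer cells of a type and less RNA per cell cannot be told apart.

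**Figure D1:**
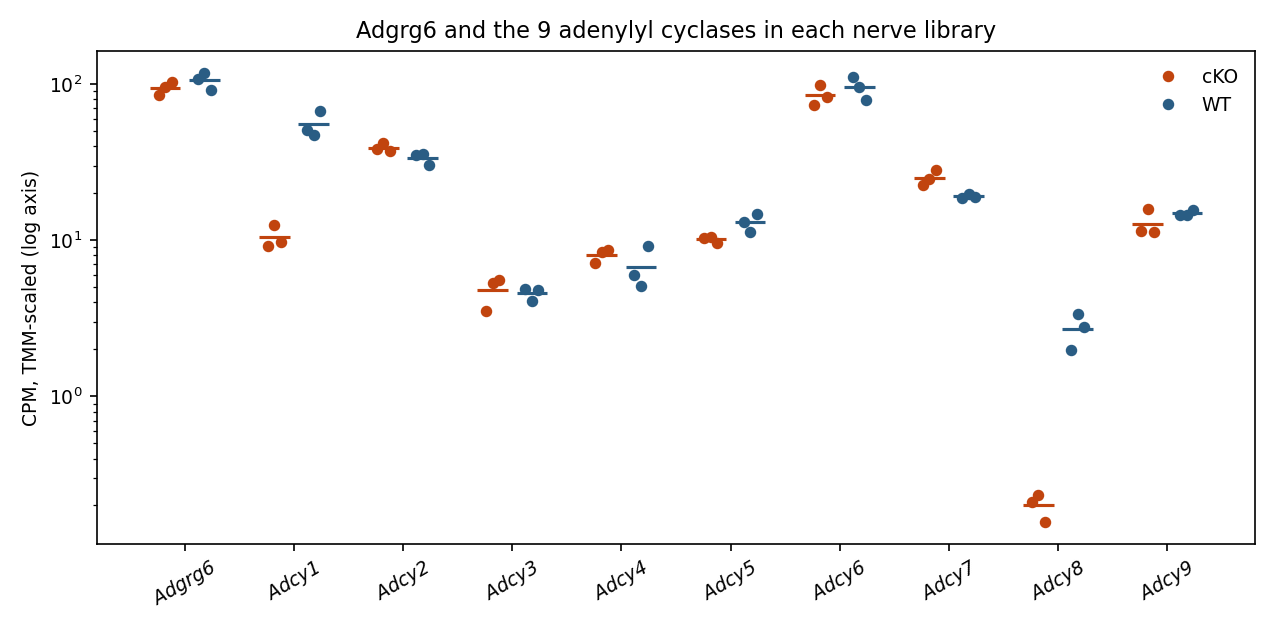
Level of Adgrg6 and the 9 cyclases in each library (CPM on a log axis; each point is a library, cKO left of WT, and each line is the mean of 3 libraries). The cKO points of Adcy1 and Adcy8 lie below all WT points, at means of 10.6 and 0.201 CPM in cKO against 55.5 and 2.71 CPM in WT nerves.

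Adgrg6 (mm10, chromosome 10 from 14402583 to 14545659 on the minus strand) had 84.97, 96.32 and 103.2 CPM in cKO 1, 2 and 3, against 108.4, 117.7 and 92.46 CPM in WT 1, 2 and 3. The groups overlapped, because WT 3 lay below cKO 2 and cKO 3. Its mean was 94.8 ± 9.20 CPM in cKO and 106.2 ± 12.8 CPM in WT nerves (SD, n = 3 each), a log2 fold change of -0.16 ± 0.11 (SE, edgeR adjusted p = 0.433). An antisense gene, Gm46212, overlaps 441 bases of its exons, and without a stated strand setting the reads of such a pair cannot be told apart.

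Adcy1 (chromosome 11, 7063489 to 7178506, plus strand) encodes a cyclase known for calcium-dependent signalling in neurons. It had 306, 324 and 312 counts in cKO 1, 2 and 3, which is 9.23, 12.6 and 9.80 CPM, against 2368, 1905 and 2684 counts in WT 1, 2 and 3, which is 51.2, 47.6 and 67.6 CPM. The lowest WT library was thus well above the highest cKO library. The log2 fold change was -2.40 ± 0.17 (SE, n = 3 per group, edgeR adjusted p = 0.000192). Leaving out any of the 6 libraries kept the call. Adding the muscle level as a covariate gave Adcy1 a log2 value of -2.94 (edgeR adjusted p = 0.0134). The summed muscle markers did not overlap between the groups, so this covariate cannot be told apart from the genotype, here or below.

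Adcy8 (chromosome 15, 64697084 to 64922296, minus strand), also a calcium-stimulated enzyme best known from the brain, was the lowest of the family. It had 7, 6 and 5 counts in cKO 1, 2 and 3 (0.211, 0.234 and 0.157 CPM) and 91, 135 and 111 counts in WT 1, 2 and 3 (1.97, 3.38 and 2.80 CPM). The cKO values are close to the limit of 3 counts that a library with no count would allow (0.0937 to 0.122 CPM there, counting error alone), so the size of the fall is uncertain. Its log2 fold change was -3.74 ± 0.39 (SE, n = 3 per group, edgeR adjusted p = 0.000755). Adding the muscle level as a covariate ended the Adcy8 call, at a log2 value of -3.16 (edgeR adjusted p = 0.107). The median SE over all genes grew to 0.288 with that covariate, against 0.142 without it, so nothing is read from the lost call. Schwann cell markers, lower in the same cKO libraries, were not entered as a covariate, and their part in the Adcy1 and Adcy8 values was not tested.

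Adcy3 (chromosome 12, 4133103 to 4213525, plus strand), the cyclase of olfactory neurons and the remaining calcium-stimulated member, was not called. It was at 3.53, 5.34 and 5.56 CPM in cKO 1, 2 and 3, against 4.91, 4.10 and 4.79 CPM in WT 1, 2 and 3, with overlapping groups and a log2 fold change of 0.06 ± 0.23 (SE, edgeR adjusted p = 0.916). The direction turned without cKO 2, cKO 3 or WT 2 (log2 -0.02, -0.07 and -0.02), and the coding gene Cenpo overlaps 1380 bases of its exons on the opposite strand. The neuron markers were Snap25, Syt1, Rbfox3, Elavl4, Stmn2 and Tubb3. They summed to 23.1 to 30.7 CPM in cKO and 22.5 to 29.7 CPM in WT nerves, mainly from Stmn2 and Tubb3. The members differed: Elavl4 stood at log2 1.58 and Snap25 at -0.95, neither called (edgeR adjusted p = 0.0938 and 0.230). Stmn2 and Tubb3 stood at log2 0.26 and 0.04, also not called, and Syt1 and Rbfox3 were not tested.

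Promoter windows of the RefSeq annotation (GRCm38.p6, the assembly of mm10) were found for 8 of the 10 genes, 11 windows in all, each reaching from 250 bases before to 50 bases after a start site. They were searched on both strands for GGAATG, the core of the sites that TEAD factors bind as partners of YAP and TAZ, and for TGACG, a core of the sites of the cyclic AMP response factor CREB. A TEAD core was in 1 of the 11 windows, against 13.6% of 20788 promoters of the same length. A CREB core was in 3 of 11 windows, those of Adgrg6, Adcy9 and 1 of Adcy7, against 24.2% of promoters, and the full palindrome TGACGTCA, which holds that core on both strands, was in 0 windows against 2.31% of promoters. Shown are the promoter of Adcy1, the called member with a window in the table (chr11:7063183-7063482, plus strand), that of the receptor Adgrg6 (chr10:14544987-14545286, minus strand) and the Adcy3 window with the TEAD cores (chr12:4133903-4134202, plus strand). Capitals mark either core.
Adcy1: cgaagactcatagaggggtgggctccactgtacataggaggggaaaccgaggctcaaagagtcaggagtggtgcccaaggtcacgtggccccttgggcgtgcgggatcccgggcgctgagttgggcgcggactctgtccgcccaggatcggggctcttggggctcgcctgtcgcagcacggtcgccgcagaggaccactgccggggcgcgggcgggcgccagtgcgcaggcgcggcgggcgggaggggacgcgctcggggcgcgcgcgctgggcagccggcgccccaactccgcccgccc
Adgrg6: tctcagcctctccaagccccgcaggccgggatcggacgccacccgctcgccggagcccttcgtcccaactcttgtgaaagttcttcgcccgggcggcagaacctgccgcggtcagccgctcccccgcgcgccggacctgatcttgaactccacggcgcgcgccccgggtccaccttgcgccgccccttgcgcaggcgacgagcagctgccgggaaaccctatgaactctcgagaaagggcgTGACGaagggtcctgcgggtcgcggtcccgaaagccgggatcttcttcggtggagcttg
Adcy3: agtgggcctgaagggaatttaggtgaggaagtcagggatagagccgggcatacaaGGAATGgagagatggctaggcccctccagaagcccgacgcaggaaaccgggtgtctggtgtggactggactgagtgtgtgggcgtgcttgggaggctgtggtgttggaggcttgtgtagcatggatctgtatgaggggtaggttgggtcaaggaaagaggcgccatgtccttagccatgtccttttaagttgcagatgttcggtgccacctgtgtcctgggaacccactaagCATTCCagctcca
The Adcy1 window held neither core and was 74% G and C. The Adcy3 window held the TEAD core at 2 places, and Adcy3 was not called.

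Adcy2, Adcy4 and Adcy7, the beta-gamma-responsive group, had positive log2 fold changes without passing the test. Adcy7 (chromosome 8, 88272403 to 88329962, plus strand), a cyclase prominent in immune cells, was at 22.7, 24.7 and 28.0 CPM in cKO 1, 2 and 3, against 18.8, 19.8 and 18.9 CPM in WT 1, 2 and 3. The groups did not overlap, and the log2 fold change was 0.39 ± 0.11 (SE, edgeR adjusted p = 0.0642). It was called higher with upper-quartile factors, with total counts and by DESeq2 (adjusted p = 0.0449, 0.0268 and 0.0339). Lymphocyte markers summed to 18.8 to 27.3 CPM in cKO and 8.66 to 10.9 CPM in WT nerves, with 3 of 6 tested higher and none of the 8 at 0 in all libraries, while macrophage markers summed to 601.6 to 631.9 CPM in cKO and 481.5 to 662.3 CPM in WT nerves. Mast cell markers summed to 114.2 to 230.2 CPM in cKO and 78.2 to 100.7 CPM in WT nerves, with 2 of 6 higher. The part of these cells in the Adcy7 values was not tested.

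Adcy2 (chromosome 13, 68620043 to 68999541, minus strand), a cyclase of brain and muscle, was at 38.2, 41.9 and 37.3 CPM in cKO 1, 2 and 3, against 35.4, 35.7 and 30.4 CPM in WT 1, 2 and 3. Here too every cKO library lay above every WT library, by a log2 fold change of 0.21 ± 0.10 (SE, edgeR adjusted p = 0.25). The antisense gene Gm35161 overlaps 189 bases of its exons. With the muscle level as a covariate, Adcy2 differed by log2 0.25 (edgeR adjusted p = 0.812). Adcy4 (chromosome 14, 55769057 to 55784095, minus strand), a cyclase of blood vessels, ran from 7.12 to 8.67 CPM in cKO and from 5.08 to 9.25 CPM in WT nerves, with a log2 fold change of 0.25 ± 0.23 (SE, edgeR adjusted p = 0.584). The Adcy4 groups overlapped, with the highest value in WT 3, and its direction turned with the muscle level as a covariate (log2 -0.42). Endothelial markers summed to 449.6 to 543.0 CPM in cKO and 329.9 to 534.7 CPM in WT nerves.

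Adcy5 and Adcy6, the calcium-inhibited pair, had negative log2 fold changes that did not pass. Adcy6 (chromosome 15, 98589973 to 98610076, minus strand) was at 73.7, 98.9 and 82.8 CPM in cKO 1, 2 and 3, against 111.1, 96.7 and 79.6 CPM in WT 1, 2 and 3. The groups overlapped, with only cKO 1 below every WT library, and the log2 fold change was -0.17 ± 0.14 (SE, edgeR adjusted p = 0.531). The antisense gene Gm29331 overlaps 605 bases of the exons of Adcy6. Adcy5 (chromosome 16, 35154877 to 35305738, plus strand), a main cyclase of the striatum and heart, was at 10.4, 10.4 and 9.67 CPM in cKO 1, 2 and 3, against 13.1, 11.35 and 14.7 CPM in WT 1, 2 and 3. Every cKO value was below every WT value, with a log2 fold change of -0.36 ± 0.14 (SE, edgeR adjusted p = 0.154). Adcy9 (chromosome 16, 4287529 to 4420498, minus strand) was at 11.4, 15.8 and 11.2 CPM in cKO 1, 2 and 3, against 14.5, 14.5 and 15.6 CPM in WT 1, 2 and 3. The library cKO 2 lay above all WT libraries and the others below them, so the groups overlapped, and the log2 fold change was -0.22 ± 0.16 (SE, edgeR adjusted p = 0.453). The soluble cyclase Adcy10, outside the family, had 0, 0 and 2 counts in cKO 1, 2 and 3 and 1, 0 and 0 counts in WT 1, 2 and 3 and was not tested.

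To rank the cyclases, CPM was divided by the length of each gene's exons in kilobases. In cKO nerves the level per kilobase ran from Adcy6 (12.6 ± 1.88) through Adcy2 (9.29 ± 0.571), Adcy7 (3.73 ± 0.400), Adcy9 (2.47 ± 0.493), Adcy4 (1.72 ± 0.177) and Adcy5 (1.42 ± 0.0601) to Adcy1 (0.842 ± 0.145), Adcy3 (0.770 ± 0.178) and Adcy8 (0.0246 ± 0.00484, all SD, n = 3). Neighbours in that order did not overlap over the 3 libraries except Adcy1 and Adcy3. In WT nerves the order was Adcy6 (14.1 ± 2.33), Adcy2 (8.04 ± 0.704), Adcy1 (4.43 ± 0.852), Adcy9 (2.86 ± 0.121), Adcy7 (2.85 ± 0.0765), Adcy5 (1.82 ± 0.233), Adcy4 (1.45 ± 0.469), Adcy3 (0.737 ± 0.0700) and Adcy8 (0.333 ± 0.0867). There the pairs Adcy9 and Adcy7, and Adcy5 and Adcy4, overlapped. Adcy1 thus stood at rank 7 of 9 in cKO and rank 3 of 9 in WT nerves, while Adcy6 and Adcy2 held ranks 1 and 2 in both.

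Adcy1 supplied 2.47%, 2.77% and 2.42% of the summed level per kilobase of the 9 cyclases in cKO 1, 2 and 3, against 10.6%, 10.6% and 15.3% in WT 1, 2 and 3. Adcy6 supplied 38.1% ± 1.85 in cKO and 38.4% ± 4.71 in WT nerves (SD, n = 3 each). The calcium-stimulated members together made up 4.97% ± 0.442 in cKO and 15.1% ± 2.91 in WT nerves. Most of that difference lay in Adcy1, at means of 2.56% in cKO and 12.15% in WT nerves. Adcy8 was at 0.0751% in cKO and 0.916% in WT nerves, and Adcy3 at 2.33% in cKO and 2.01% in WT nerves. The beta-gamma-responsive members made up 45.1% ± 2.41 in cKO and 33.7% ± 1.22 in WT nerves. Such shares move together, since a lower share of Adcy1 raises the others. Summed over the 9 cyclases the level per kilobase was 29.8, 36.4 and 32.3 in cKO 1, 2 and 3 and 38.6, 36.0 and 35.3 in WT 1, 2 and 3, and without Adcy1 and Adcy8 it was 29.0, 35.3 and 31.5 in cKO and 34.3, 31.8 and 29.6 in WT nerves. Both sums overlapped between the groups.

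**Figure D2:**
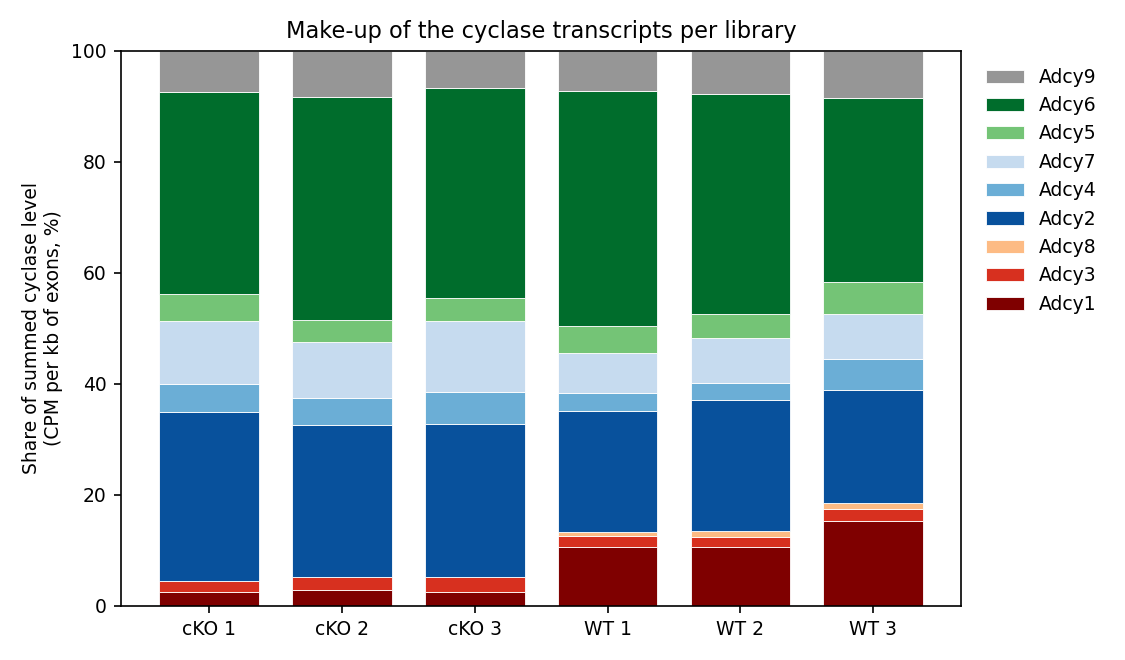
Share of each cyclase in the summed level of all 9 (CPM per kilobase of exons, in percent; 1 bar per library, cKO left of WT). Adcy1, at the foot of each bar, takes 2.42% to 2.77% in cKO and 10.6% to 15.3% in WT nerves, while Adcy6 takes 33.2% to 42.4% in all 6 libraries.

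Of 145 other genes of the pathway, taken from lists of ligands, receptors, G proteins and cyclic AMP effectors, 114 were tested. In cKO nerves 7 rose and 7 fell (edgeR adjusted p under 0.05), which is 12.3% of those tested, where 10.9% of all genes were called in either direction. Without WT 3 the counts were 13 higher and 11 lower. The median log2 fold change of the 114 genes was 0.06, and that of all genes 0.02. With the muscle level as a covariate these 14 genes had edgeR adjusted p-values between 0.0502 and 0.883, and the median SE over all genes grew to 0.288, against 0.142 without it. Their log2 values moved unequally under it. Of the lower genes, Adgrg1, Crtc3, Gng2 and Adcyap1r1 stood at -1.62, -0.85, -0.81 and -0.41, against -1.20, -0.54, -0.72 and -0.41 without it. Lama2, Gnai1 and Egr2 stood at -0.58, -0.85 and -0.35, against -0.61, -1.06 and -0.53. Of the higher genes, Adgre5, Pde1c, Adgrl2 and Adgrb1 stood at 0.57, 0.58, 0.32 and 0.88, against 0.74, 0.99, 0.71 and 2.14, and the remaining 3, Bves, Popdc2 and Popdc3, are given with their levels.

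Among 6 genes for ligands of Adgrg6, Lama2, the alpha chain of the laminin of the Schwann cell basal lamina, fell 1.53-fold (433.0, 478.1 and 444.8 CPM in cKO 1, 2 and 3, and 692.0, 722.6 and 656.2 CPM in WT 1, 2 and 3; edgeR adjusted p = 0.00392). Lamb1 and Lamc1, the other chains of that laminin, were not called by edgeR at log2 -0.28 ± 0.09 and -0.31 ± 0.13 (SE, adjusted p = 0.0944 and 0.187), while DESeq2 called Lamb1 lower (adjusted p = 0.00676). Nor did edgeR call the collagens Col4a1 and Col4a2 and the prion protein gene Prnp, whose log2 values lay from -0.03 to 0.11. Of the transcription factors downstream, Egr2 fell 1.44-fold to 157.4 to 164.1 CPM in cKO, against 218.2 to 251.0 CPM in WT nerves (edgeR adjusted p = 0.00627). Pou3f1, which acts before Egr2 and is switched off as myelin forms, was at 348.5, 410.8 and 366.0 CPM in cKO 1, 2 and 3, against 289.0, 300.8 and 190.2 CPM in WT 1, 2 and 3. Its groups did not overlap, but it did not pass (log2 0.53 ± 0.17, SE, edgeR adjusted p = 0.0791), while DESeq2 called it higher (adjusted p = 0.0155).

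Of 22 other adhesion G protein-coupled receptors tested, 3 rose and 1 fell. Of all genes tested, 4.77% were called higher and 6.17% lower, and the counts of this and the other lists are descriptions. Adgrg1, a close relative of Adgrg6 that acts in oligodendrocyte development and is also present in Schwann cells, fell 2.30-fold (31.4, 49.5 and 39.6 CPM in cKO 1, 2 and 3, and 87.3, 88.1 and 101.9 CPM in WT 1, 2 and 3; edgeR adjusted p = 0.00217). Adgre5, known as CD97 on leukocytes, rose 1.67-fold, and Adgrb1, a receptor for apoptotic cells, rose by 2.14 on the log2 scale, at 5.34 to 7.13 CPM in cKO and 0.750 to 2.03 CPM in WT nerves. Adgrl2, a latrophilin named after its values were seen, rose 1.63-fold, a call lost without cKO 2, cKO 3, WT 1 or WT 2 (edgeR adjusted p = 0.0568, 0.116, 0.0858 and 0.0794). Of 15 Gs-coupled receptors tested, 1 fell and 0 rose, with 3 higher at an unadjusted p under 0.05 and 0 higher by DESeq2 and by limma-voom. That gene was Adcyap1r1, the receptor for the neuropeptide PACAP, which was 1.33-fold lower (28.9, 33.5 and 34.7 CPM in cKO 1, 2 and 3, and 39.0, 44.3 and 45.4 CPM in WT 1, 2 and 3; edgeR adjusted p = 0.0428). Leaving out any cKO library (1, 2 or 3) or WT 2 ended its call (edgeR adjusted p = 0.101, 0.0923, 0.0872 and 0.143). Total counts, upper-quartile factors and the replicate number as a block each ended it too (edgeR adjusted p = 0.127, 0.0526 and 0.0553).

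Of 7 G protein alpha subunits that act on cyclases, the inhibitory Gnai1 fell 2.08-fold (115.2, 117.9 and 120.1 CPM in cKO 1, 2 and 3, and 207.1, 268.2 and 260.8 CPM in WT 1, 2 and 3; edgeR adjusted p = 0.000736). The stimulatory subunit Gnas, at log2 0.22 ± 0.13 (SE), was not called. The inhibitory Gnai3 and Gnaz, at log2 -0.22 ± 0.10 and -0.74 ± 0.27 (SE), did not pass either, though the groups did not overlap for both. Of 14 beta and gamma subunits, Gng2 fell 1.65-fold to 251.3 to 285.8 CPM in cKO, against 407.9 to 492.3 CPM in WT nerves (edgeR adjusted p = 0.00339), and 0 rose by edgeR, DESeq2 or limma-voom, with 1 higher at an unadjusted p under 0.05.

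Of 15 phosphodiesterases that break down cyclic AMP, Pde1c, itself stimulated by calcium and calmodulin, rose 1.99-fold (7.45, 8.30 and 9.23 CPM in cKO 1, 2 and 3, and 5.37, 3.55 and 3.63 CPM in WT 1, 2 and 3; edgeR adjusted p = 0.0185). Its call was lost without cKO 2, cKO 3 or WT 2 (edgeR adjusted p = 0.0573, 0.0963 and 0.0690). With the replicate number as a block it was lost too (edgeR adjusted p = 0.0511). Pde4d and Pde10a had log2 fold changes of 0.55 ± 0.16 and 0.77 ± 0.28 (SE) and were not called by edgeR (adjusted p = 0.0599 and 0.119). Pde4d was called higher by DESeq2, with upper-quartile factors, with total counts and after thinning (adjusted p = 0.0143, 0.0412, 0.0370 and 0.0488). Of the list, 12 of the 15 had a positive value, but edgeR called only Pde1c. The share of positive values over all genes was not computed, so nothing is read from that count. Of 9 protein kinase A subunits and inhibitors, edgeR, DESeq2 and limma-voom called 0, with 2 at an unadjusted edgeR p under 0.05, the catalytic subunit Prkaca (log2 0.30 ± 0.10) and the regulatory subunit Prkar2b (log2 0.38 ± 0.12). Of 11 anchoring proteins of that kinase 0 were called by edgeR and by limma-voom, with 4 at an unadjusted p under 0.05, while DESeq2 called Akap11 lower and Akap6 higher. Crtc3, a coactivator of CREB, fell 1.45-fold among 8 CREB factors and coactivators (edgeR adjusted p = 0.0316), a call lost without cKO 3 or WT 2 and with total counts (edgeR adjusted p = 0.0943, 0.0718 and 0.0748).

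Bves, Popdc2 and Popdc3, which encode cyclic AMP-binding Popeye proteins of striated muscle, rose 4.55-fold, 3.86-fold and 4.29-fold among 5 other effectors of cyclic AMP. They stayed low, at 1.72 to 6.70 CPM in cKO and 0.375 to 1.49 CPM in WT nerves, and their highest values were in cKO 2, the library with the highest muscle markers (8256 CPM). With the muscle level as a covariate their log2 fold changes were 0.40 for Bves, 0.72 for Popdc2 and 0.59 for Popdc3, against 2.19, 1.95 and 2.10 without it, and edgeR called none of the 3 (adjusted p = 0.883, 0.760 and 0.867). The summed muscle markers did not overlap between the groups (3621 to 8256 CPM in cKO and 355.2 to 1388 CPM in WT nerves), so the covariate cannot be told apart from the genotype. The part of muscle tissue in the values of these 3 genes was not tested. The exchange factors Rapgef3 and Rapgef4, known as Epac proteins, did not pass.

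**Figure D3:**
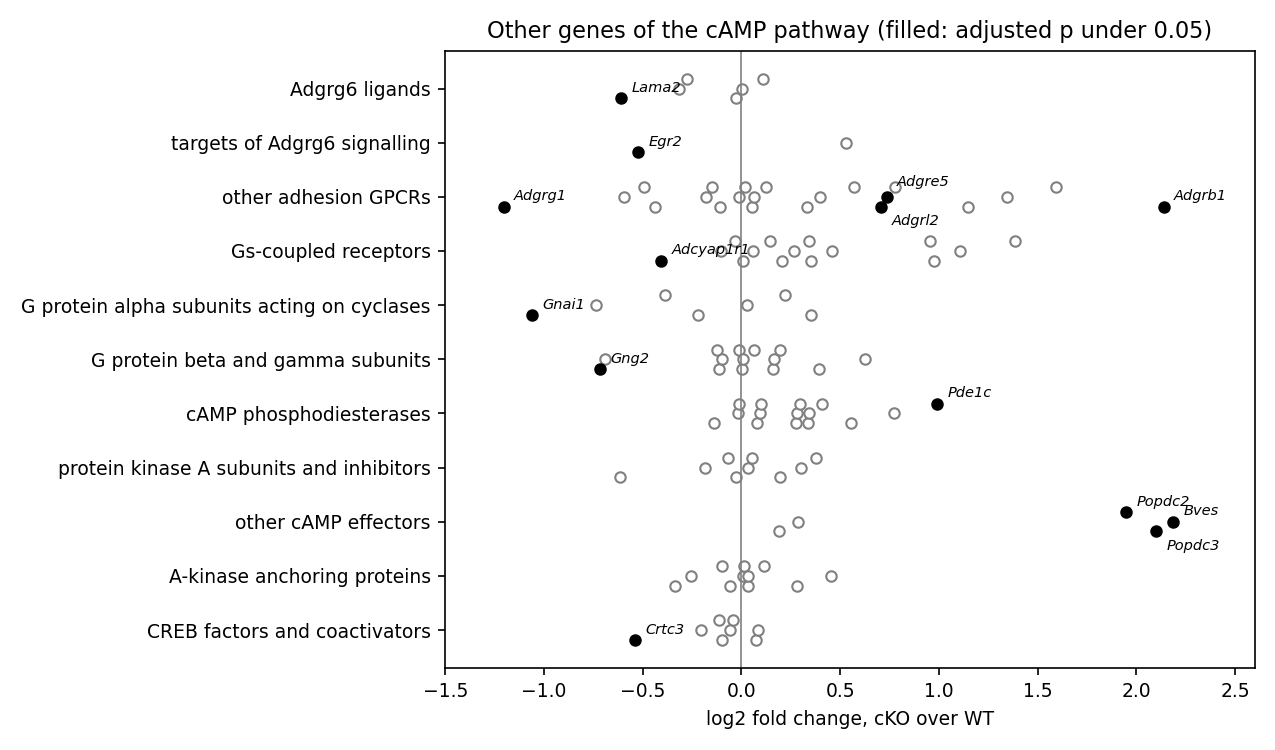
Log2 fold change, cKO over WT, of the 114 tested genes of the pathway lists (1 point per gene, 1 row per list; filled points have an edgeR adjusted p under 0.05). The lowest called gene is Adgrg1 at -1.20 and the highest are Bves, Adgrb1 and Popdc3 at 2.19, 2.14 and 2.10.

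The genes whose log2 CPM over the 6 libraries was most like that of Adgrg6, among 10339 genes whose log2 CPM averaged 3 or more, were Csnk1d, Dhx9 and Cep97 (Pearson r = 0.9888, 0.9885 and 0.9881). For Adcy6 they were Gabpb2, Aatk, a kinase gene, and Zfyve1 (r = 0.9915, 0.9863 and 0.9848). With 6 points and so many genes, values this high describe these libraries and no more.

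**Figure D4:**
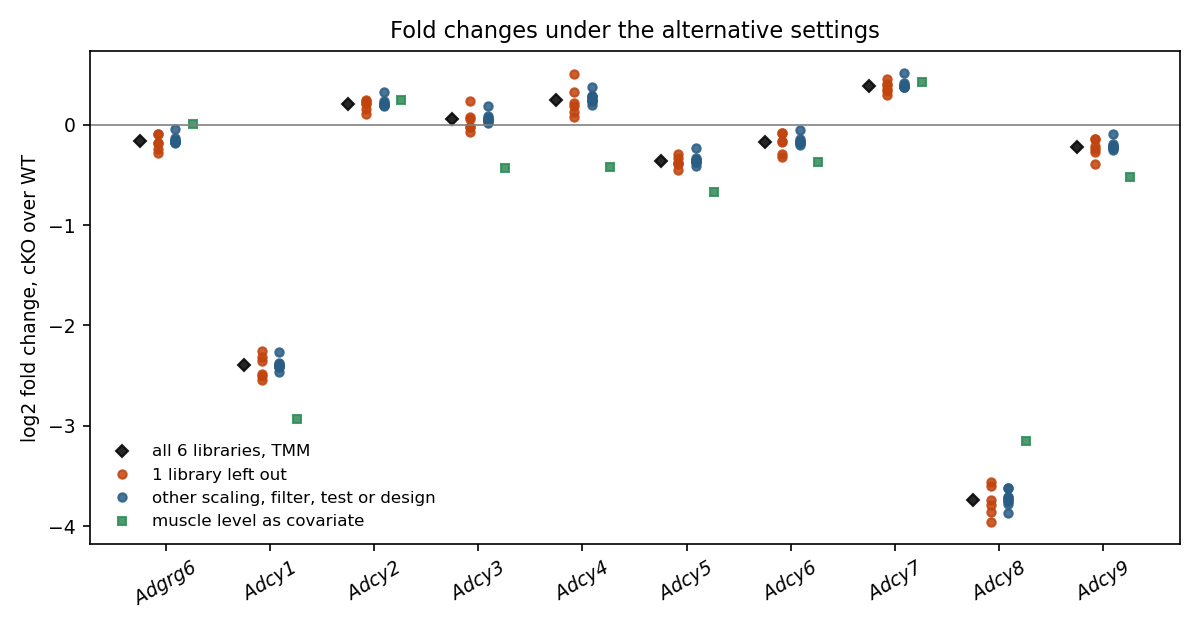
Log2 fold change, cKO over WT, of each gene in the fit of all 6 libraries and under the alternatives (1 point per fit, grouped by kind of alternative). Over all alternatives Adcy1 runs from -2.94 to -2.26 and Adcy8 from -3.96 to -3.16, while Adgrg6 runs from -0.28 to 0.01, the last with the muscle level as a covariate.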

How the data were processed

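Raw read counts per gene symbol were deposited by the authors in 1 file per sample, with no normalization. TopHat2 version 2.0.13, HTSeq and the build mm10 are named, without roles, per the submitters' processing notes; no source used here gives the annotation or the strand setting. RNA was prepared with Trizol, RNeasy and a TruSeq kit, per the labels' protocols. HTSeq's closing lines were left out: reads given to no gene were 12.1% to 14.3% and ambiguous reads 1.64% to 2.82% of each file. Library totals were 24651262 to 47044158.

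Genes were filtered with filterByExpr (minimum count 10, here 0.273 CPM in 3 libraries) and tested with edgeR 4.0.16 in R 4.3.3: TMM factors, quasi-likelihood F test on 6 libraries with group as the only term, Benjamini-Hochberg adjustment over 14789 genes. The SE is the log2 fold change over the square root of F. Fold changes are cKO over WT. DESeq2 1.42.0, limma-voom (limma 3.58.1), other scalings and filters, a replicate block, a muscle covariate and leaving out each library were alternatives; thinning to the shallowest library was added after seeing the data. The edgeR fit was tested on simulated counts. Positions and exon lengths came from GENCODE M21 (GRCm38), found for 95.7% of symbols.

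The 10 genes and all lists were chosen with earlier results of these data known. Named were all 10 genes, up to 3 genes of each pathway list in order of p, and the 3 genes most like Adgrg6 and the top cyclase; by the rule, up to 2 genes of each marker list by level could be named. The neuron marker list was named in full, beyond that limit. Sox10, Gnas, Col4a1, Col4a2, Prnp, Rapgef3, Rapgef4, Adgrl2 and Adcy10 were named after their values were seen. Libraries of a group differed by at least 13.4 in chi-square per degree of freedom, so none was a copy. The design text names mice; whether p-values reflect single animals is not known. Intervals and limits of detection cover counting error only.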

Additional observations from a re-analysis of the deposited data

How the results depend on the processing

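Adcy1 was called lower in all 16 alternatives and Adcy8 in 15. With the muscle level as a covariate 1 member was lower; upper-quartile factors, total counts and DESeq2 each called 1 member higher, Adcy7. That covariate turned Adgrg6, Adcy3, Adcy4, Ptgir, Csnk1d and Dhx9 (log2 0.0100, -0.43, -0.42, -0.11, 0.0034 and 0.0079), total counts turned Creb1, Ep300, Csnk1d and Dhx9 (log2 0.0086, 0.025, 0.054 and 0.059), and Adcy3 ran from -0.066 to 0.24 with 1 library left out. The cause of these turns was not tested.

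Of all genes, 912 were lower and 706 higher: 606 and 1273 with total counts, which moved the median log2 fold change by 0.125 and the share of lower calls to 32.3%, against 56.4%; 89 and 13 with the muscle covariate; 459 to 1120 and 276 to 1075 with 1 library left out. Of the pathway genes, 7 were lower and 7 higher: 13 higher with total counts, 0 and 0 with the muscle covariate by edgeR, and 5 to 11 and 5 to 13 with 1 library left out, the highest without WT 3. The shares of Adcy1 and Adcy6 moved by less than 1 SD with the longest transcript as length and with 1 library left out. Where 1 library was left out, edgeR pooled the spread of the remaining 5.

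With the replicate number as a block, 643 genes were lower and 461 higher, and the 2 member calls were kept. Of the pathway genes 6 were lower and 6 higher, and the calls of Pde1c and Adcyap1r1 ended (edgeR adjusted p = 0.0511 and 0.0553). Same-numbered libraries did not deviate together (correlations of -0.298, -0.147 and 0.0897). These correlations cannot decide whether such libraries shared a litter, a day or a preparation, since muscle and adipocyte markers also differed within groups.

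Depth limits Adcy8, with 5 to 7 counts per cKO library, and 3 libraries per group limit all calls.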

Other observations

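Among the WT libraries WT 3 had the lowest Adgrg6 (92.5 CPM), Adcy2 (30.4 CPM), Adcy6 (79.6 CPM) and Pou3f1 (190.2 CPM), and the highest Adcy1 (67.6 CPM), Adcy4 (9.25 CPM) and Adcy5 (14.7 CPM). Adipocyte markers were also high in that library: Fabp4 was at 339.8 CPM, against 86.7 and 80.2 CPM in WT 1 and WT 2, and Cfd at 63.0 CPM, against 3.46 and 3.53 CPM. In the cKO libraries Fabp4 was at 270.4, 279.3 and 358.5 CPM. The part of adipose tissue in the values of WT 3 was not tested. Without WT 3, Adgrg6 differed by log2 -0.28 and Adcy4 by log2 0.51 (edgeR adjusted p = 0.0943 for both).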
